A study of Mus musculus with 16 samples.

Results

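The genes described are the 8 AP-1 genes of the Fos and Jun families with Atf3: Fos, Fosb, Fosl1, Fosl2, Jun, Junb, Jund and Atf3. They were taken by gene symbol from the platform annotation, which gave each of them 1 probe set, and they are 8 of 19505 genes with a named probe set. Levels come from 16 Clariom S arrays of cells sorted from the olfactory mucosa of mice that carry S100a5-tauGFP on a C57BL/6 background, of both sexes and 7 to 12 weeks old. S100a5 is transcribed in olfactory sensory neurons according to their activity, so the reporter marks neurons by their recent activity. Each of 24 mice stayed alone in a clean air chamber for 40 h, and from 26 h on received either undecanal, an aldehyde odorant, or filtered air as vehicle for 10 s every 20 min. The mucosa was then dissociated and sorted on GFP, and cells of 3 mice were pooled, which gave 4 pools per agent with 2 sort fractions each and hence 4 groups of 4 arrays.

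For 16 of 16 samples the GFP sign in the title was the opposite of that in the characteristics. The names titled GFP+ and titled GFP- therefore follow the title alone. S100a5 itself went against the titles: with vehicle its mean was 15.66 ± 0.126 (SD, n = 4) where the title says GFP+ and 16.58 ± 0.260 (SD, n = 4) where it says GFP-, and in 8 of 8 pools the GFP+ title had the lower value. Directions are given as titled, and a difference between fractions would turn its sign if the characteristics are right, while a difference between agents within a fraction would keep it. The neuron marker Omp was at 18.71 to 18.95 on all 16 arrays, so both fractions hold RNA of mature olfactory neurons. All levels and differences below are on the log2 scale of the deposited values, where a difference of 1 is a doubling. Levels are compared between arrays for 1 gene at a time because probe sets differ in brightness. The exception is the summed levels of marker lists, in which the brightest probe sets of a list weigh most. The background level was 4.80, under which 95% of the group means of 358 vomeronasal (Vmn1r, Vmn2r) and bitter taste (Tas2r) receptor probe sets fell. The number of arrays limits the precision.

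AP-1 is a transcription factor made of pairs of basic leucine zipper proteins. Fos proteins (Fos, Fosb, Fosl1, Fosl2) bind DNA only with a Jun partner, Jun proteins (Jun, Junb, Jund) pair with Fos proteins or with each other, and Atf3 pairs with Jun proteins or with itself and often represses. Fos, Fosb, Junb and Atf3 are immediate early genes, which are transcribed within minutes of a stimulus through MAP kinases that act on serum response factor and its Elk partners, and through cyclic AMP or calcium signals that act on CREB, whereas Jund is made more steadily. In the olfactory epithelium and bulb, Fos mRNA is widely used as a sign of recently stimulated cells.

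CREB binding at the short site TGACG is a known input of the Fos promoter. The stretches shown are those upstream of the 5 members in which a searched site was found. They are the 140 bases before the gene's start in RefSeq's annotation of GRCm38.p6, written 5′ to 3′ on the gene's strand, and capitals mark TGACG on either strand or, in Jun, the site TGACATCA. Fos lies at chr12:85473750-85473889 on the plus strand, Fosb at chr7:19310046-19310185, Junb at chr8:84978749-84978888, Atf3 at chr1:191183334-191183473 and Jun at chr4:95052223-95052362, all 4 on the minus strand, and each stretch is promoter sequence outside the transcribed gene.
Fos: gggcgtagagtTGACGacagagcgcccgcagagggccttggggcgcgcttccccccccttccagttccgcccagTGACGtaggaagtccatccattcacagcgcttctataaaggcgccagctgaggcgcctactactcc
Fosb: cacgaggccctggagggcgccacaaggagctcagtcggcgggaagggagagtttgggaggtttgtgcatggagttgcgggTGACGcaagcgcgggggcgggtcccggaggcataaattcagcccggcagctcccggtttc
Junb: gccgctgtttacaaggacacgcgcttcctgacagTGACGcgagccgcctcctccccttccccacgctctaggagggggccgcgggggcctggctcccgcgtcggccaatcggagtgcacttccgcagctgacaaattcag
Atf3: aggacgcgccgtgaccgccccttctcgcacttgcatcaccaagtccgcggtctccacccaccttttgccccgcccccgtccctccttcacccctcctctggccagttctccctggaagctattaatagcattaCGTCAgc
Jun: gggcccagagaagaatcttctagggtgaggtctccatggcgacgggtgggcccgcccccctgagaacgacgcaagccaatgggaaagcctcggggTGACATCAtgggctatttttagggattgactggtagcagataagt
In the 250 bases before the start, TGACG was found on either strand in 4 of the 7 members with a sequence in the table, Fos, Fosb, Junb and Atf3, and in 17.8% of all 32851 promoter windows of that length. Fos held 2 matches, starting at positions -129 and -66 from the start, Fosb 1 at -60, Junb 1 at -106 and Atf3 1 on the opposite strand at -7. The 8-letter site TGACATCA, known from the Jun promoter and searched for that reason, was found in Jun at -45 and in 2.93% of the windows. The full cyclic AMP element TGACGTCA (1.55% of windows; it contains TGACG), the AP-1 site TGANTCA (6.75%) and the CArG box bound by serum response factor (1.47%) were each found in 0 of the 7 windows. These matches describe letters in a short window, and sites more than 250 bases upstream were not searched.

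The first comparison asks how the members differed between the sort fractions. Fos, Fosb and Junb were far higher in arrays titled GFP+, about the same in vehicle and in undecanal pools, with differences between 4.00 and 5.08. Fosl2 and Atf3 were moderately higher, Jun slightly, and Jund and Fosl1 did not pass. With vehicle 6 of 8 members passed as higher and 0 as lower (limma, Benjamini-Hochberg over all probe sets), against 8.82% of the 22206 probe sets tested that passed as higher and 5.12% as lower. With undecanal 6 of 8 passed as higher and 0 as lower, against 8.83% and 4.36%. The median difference of the 8 members was 1.80 in vehicle pools, where that of all probe sets was -0.113, and 1.80 in undecanal pools, where that of all probe sets was -0.106.

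**Figure D1:**
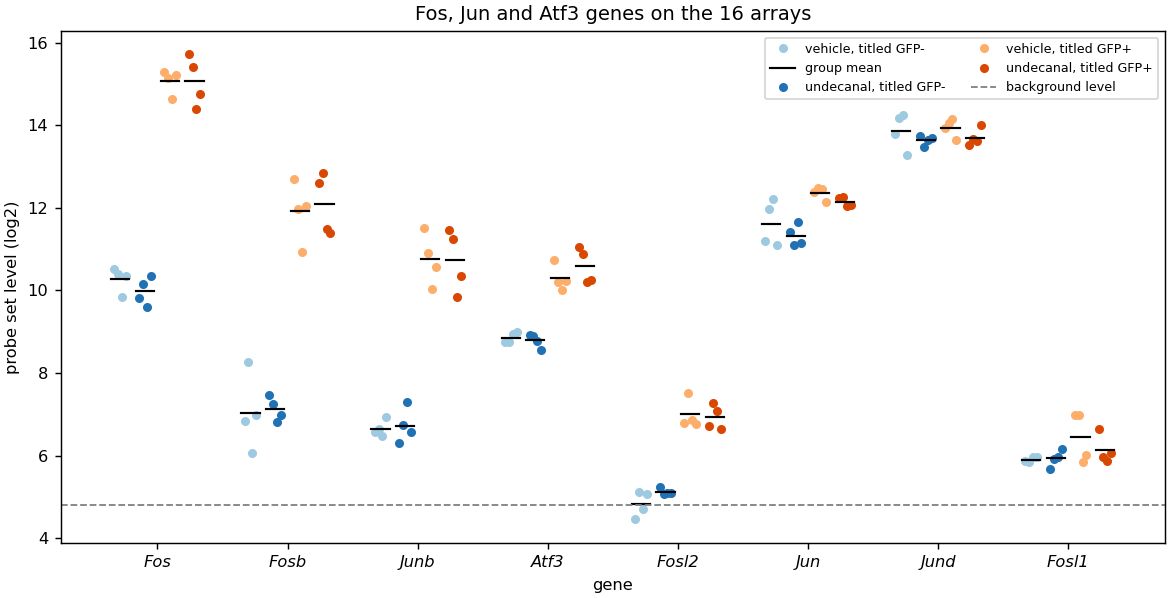
Level of each member (log2, y axis) on the 16 arrays, by gene (x axis) and group; points are arrays, black bars are group means and the dashed line is the background level of 4.80. All arrays titled GFP+ lie above all arrays titled GFP- for Fos, Fosb, Junb, Atf3 and Fosl2, while the groups overlap for Jund and Fosl1.

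Fos, the founding member of its family, was at 10.52, 10.40, 9.85 and 10.35 in vehicle pools 1 to 4 in arrays titled GFP- and at 15.29, 15.15, 14.64 and 15.21 in the arrays titled GFP+ of the same pools. With undecanal it was at 9.83, 10.16, 9.59 and 10.35 in arrays titled GFP- and at 15.71, 15.41, 14.39 and 14.75 in arrays titled GFP+. The fractions did not overlap with either agent, and the lowest array titled GFP+ lay 4.13 above the highest titled GFP- with vehicle and 4.04 with undecanal. The difference was 4.79 with vehicle (SE 0.260, limma adjusted p = 3.32e-10), a 27.7-fold higher signal, and 5.08 with undecanal (SE 0.260, limma adjusted p = 1.51e-10), a 33.9-fold higher signal. Pool by pool the difference was 4.75 to 4.86 with vehicle, a narrow range, and 4.40 to 5.88 with undecanal.

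Fosb, a close relative of Fos that gives rise to a long-lived truncated form in neurons, was at 6.84, 8.26, 6.08 and 6.99 in vehicle pools in arrays titled GFP- and at 12.69, 11.98, 10.94 and 12.05 in arrays titled GFP+. With undecanal it was at 7.46, 7.25, 6.82 and 6.99 in arrays titled GFP- and at 12.61, 12.84, 11.50 and 11.40 in arrays titled GFP+. The fractions did not overlap. Arrays within a group spread more than for Fos, except in undecanal arrays titled GFP- (SD 0.280 for Fosb and 0.339 for Fos). The difference was 4.87 with vehicle (SE 0.427, limma adjusted p = 1.33e-07) and 4.96 with undecanal (SE 0.427, limma adjusted p = 1.08e-07).

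Fosl2, which encodes the Fos relative Fra-2, was at 4.46, 5.12, 4.71 and 5.08 in vehicle arrays titled GFP-, of which 2 lay below the background level, and at 6.80, 7.53, 6.87 and 6.78 in vehicle arrays titled GFP+. With undecanal it was at 5.07 to 5.24 in arrays titled GFP- and at 6.66 to 7.28 in arrays titled GFP+. Again no array titled GFP+ was as low as any titled GFP-, and the closeness of the lower fraction to the background level limits the size that could be measured. The difference was 2.15 with vehicle (SE 0.197, limma adjusted p = 2.17e-07) and 1.81 with undecanal (SE 0.197, limma adjusted p = 2.10e-06).

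Fosl1, which encodes Fra-1, did not pass between fractions. In vehicle arrays titled GFP+ it was at 6.99, 6.99, 5.86 and 6.01, and in those titled GFP- at 5.87, 5.85, 5.96 and 5.96, so pools 1 and 2 stood above the other fraction and pools 3 and 4 lay close to it. The difference was 0.55 with vehicle (95% interval 0.05 to 1.06, limma adjusted p = 0.152) and 0.21 with undecanal (95% interval -0.29 to 0.71, limma adjusted p = 0.650), where arrays titled GFP+ were at 6.65, 5.97, 5.88 and 6.08. With arrays centred on the mature neuron list it passed in vehicle pools at 0.80 (limma adjusted p = 0.0290).

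Junb, a Jun protein that often restrains Jun, followed Fos and Fosb. It was at 6.58, 6.64, 6.49 and 6.94 in vehicle arrays titled GFP- and at 11.52, 10.90, 10.04 and 10.56 in those titled GFP+. With undecanal it was at 6.30, 6.74, 7.30 and 6.58 in arrays titled GFP- and at 11.47, 11.24, 9.85 and 10.34 in those titled GFP+. The fractions did not overlap, and the difference was 4.09 with vehicle (SE 0.338, limma adjusted p = 6.22e-08) and 4.00 with undecanal (SE 0.338, limma adjusted p = 8.45e-08). In undecanal pool 3 the fractions differed by 2.55, the smallest of the 8 pools, and in undecanal pool 1 by 5.17, the largest.

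Jun, the main partner of Fos, was at 11.20, 11.97, 12.22 and 11.10 in vehicle arrays titled GFP- and at 12.39, 12.49, 12.46 and 12.14 in those titled GFP+, where the lowest lay just under the highest of the other fraction. With undecanal the fractions did not overlap, with arrays titled GFP- at 11.42, 11.11, 11.65 and 11.14 and arrays titled GFP+ at 12.05 to 12.26. The difference was 0.75 with vehicle (SE 0.216, limma adjusted p = 0.0254) and 0.82 with undecanal (SE 0.216, limma adjusted p = 0.0139), and all 8 pools had Jun higher where the title says GFP+. These calls were not stable. In vehicle pools the difference was 0.39 with arrays centred on their median (limma adjusted p = 0.123), 0.60 without pool 1 (limma adjusted p = 0.163), 0.65 without pool 4 (limma adjusted p = 0.0829) and lost its call when only the 2 groups entered the fit (limma adjusted p = 0.0759). In undecanal pools the call was lost with median centring (0.47, limma adjusted p = 0.0720) and without pool 1 (0.83, limma adjusted p = 0.0619), 2 (0.71, limma adjusted p = 0.109) or 4 (0.79, limma adjusted p = 0.0619).

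Jund, the most steadily made Jun protein, did not pass. It was at 13.27 to 14.24 in vehicle arrays titled GFP- and at 13.63 to 14.16 in those titled GFP+, and 4 of 8 pools had it higher where the title says GFP+. The difference was 0.08 with vehicle (95% interval -0.34 to 0.49, limma adjusted p = 0.850) and 0.07 with undecanal (95% interval -0.34 to 0.48, limma adjusted p = 0.870), and with median centring it turned to -0.28 and -0.29.

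Atf3, a stress-responsive relative that pairs with Jun proteins, was at 8.75, 8.75, 8.94 and 8.99 in vehicle arrays titled GFP- and at 10.73, 10.20, 10.02 and 10.23 in those titled GFP+. With undecanal it was at 8.93, 8.90, 8.79 and 8.57 in arrays titled GFP- and at 11.06, 10.88, 10.20 and 10.25 in those titled GFP+. The fractions did not overlap, and the difference was 1.44 with vehicle (SE 0.198, limma adjusted p = 3.45e-05) and 1.80 with undecanal (SE 0.198, limma adjusted p = 2.44e-06).

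**Figure D2:**
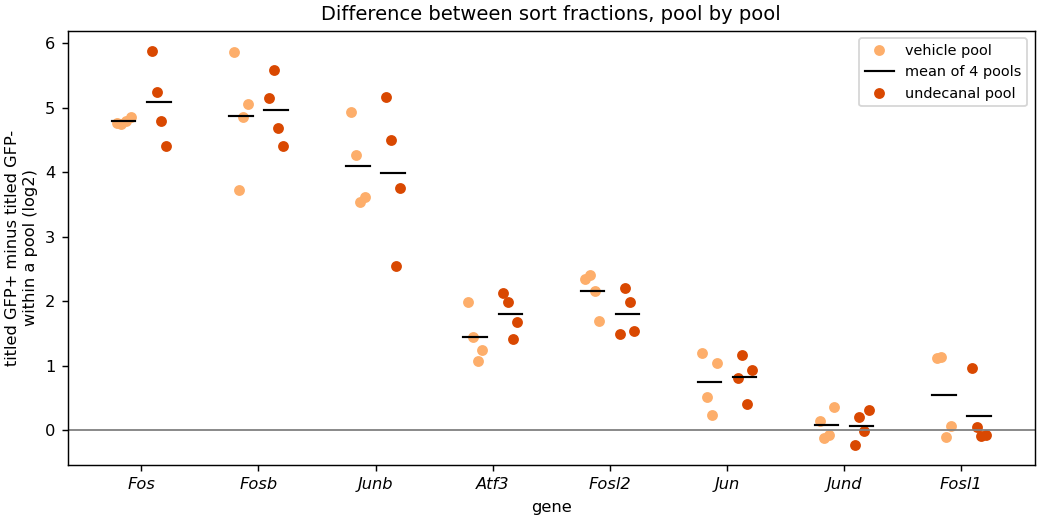
Difference of each member between the 2 fractions of 1 pool, titled GFP+ minus titled GFP- (log2, y axis), by gene (x axis); points are the 4 vehicle and 4 undecanal pools and bars their means. Fos, Fosb, Junb, Atf3, Fosl2 and Jun were positive in 8 of 8 pools, Fosl1 in 5 of 8 and Jund in 4 of 8.

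In all, 5 of 8 members had no overlap between fractions in the higher direction with vehicle, against 9.83% of all probe sets, and 6 of 8 with undecanal, against 9.43%. The order of the 4 groups was of one kind for Fos, Fosb, Junb, Atf3 and Fosl2: both groups titled GFP+ stood above both groups titled GFP-, and the 2 agents within a fraction were neighbours whose arrays overlapped. For Jund all neighbouring groups overlapped.

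Markers of several other cell types, though not of all those listed, were higher where the title says GFP+, and in sorted bulk samples fewer cells of a type and less RNA per cell cannot be told apart. In vehicle pools 8.82% of all probe sets passed as higher and 5.12% as lower. There 11 of 11 measured neutrophil markers passed as higher. Their summed level (log2 of the sum of linear values) was 8.38 to 8.99 in arrays titled GFP- and 18.00 to 18.75 in those titled GFP+. In vehicle arrays titled GFP- the means of 4 of the 11, Camp, Mmp8, Cxcr2 and Csf3r, lay below background, and the other 7 lay between 4.90 for S100a9 and 6.35 for Ngp. Of the monocyte and macrophage markers 9 of 9 passed, with summed levels of 7.18 to 8.27 and 14.43 to 14.87, and 7 of the 9 lay below background in vehicle arrays titled GFP-. Lymphocyte markers passed in 5 of 9 cases, with summed levels of 7.77 to 8.15 and 8.94 to 10.93. Markers of microvillar cells (10 of 10), neuronal precursors (6 of 8), immature neurons (7 of 12), sustentacular cells (6 of 11), Bowman's gland (4 of 7) and erythroid cells (2 of 2) passed as higher too. The 4 Bowman's gland calls were Ltf (7.65), Sox9 (3.82), Kcnn4 (1.11) and Aqp5 (0.93). Muc5b (0.21), Bpifb9b (0.06) and Sox10 (0.56) did not pass, and Muc5b and Sox10 lay below background in all 4 groups. Horizontal basal cell markers passed as higher in 2 of 7 cases with a median difference of 0.02, and Krt5, Krt14, Krt15, Trp63 and Icam1 lay below background in all 4 groups. Ensheathing and vascular markers had 1 of 8 higher, Dcn (1.26), and 1 lower, Pdgfrb (-0.74), with a median of 0.02. Mature neuron markers were lower in 4 of 17 cases and higher in 0, with summed levels of 21.60 to 21.67 in arrays titled GFP- and 21.44 to 21.53 in those titled GFP+, and with median centring 17 of 17 passed as lower with each agent. The part of these cells in the differences of the AP-1 genes was not tested.

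The second comparison asks whether undecanal changed the members within a fraction. It did not for any of them by the test used: 0 of 8 passed in either fraction in limma, and 0 of 8 had an unadjusted p under 0.05. In arrays titled GFP+ 0.00450% of all probe sets passed and 2.72% had an unadjusted p under 0.05, and in arrays titled GFP- 0% and 4.12%. The median difference of the members, undecanal minus vehicle, was -0.04 in arrays titled GFP+ and -0.02 in arrays titled GFP-, beside 0.0123 and 0.00429 over all probe sets. For each of the 8 members the arrays of the 2 agents overlapped in both fractions, where 1.87% of all probe sets had no overlap in arrays titled GFP+ and 2.20% in arrays titled GFP-.

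In arrays titled GFP+ the Fos group means were 15.07 with vehicle and 15.06 with undecanal, and the difference was -0.01 (95% interval -0.56 to 0.54), which spans 0.679-fold to 1.45-fold. Atf3 had the smallest unadjusted p of the members there, at 0.30 (95% interval -0.12 to 0.72, limma adjusted p = 0.999), with 10.02 to 10.73 in vehicle arrays and 10.20 to 11.06 in undecanal arrays. Fosl1 was at -0.32 (95% interval -0.82 to 0.19), Jun at -0.22 (-0.67 to 0.24) and Jund at -0.24 (-0.65 to 0.17). Fosb at 0.17 (-0.73 to 1.07) and Junb at -0.03 (-0.74 to 0.68) had the widest intervals, and Fosl2 was at -0.06 (-0.47 to 0.36).

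In arrays titled GFP- Fos was at -0.30 (95% interval -0.85 to 0.25) and Jun at -0.30 (-0.75 to 0.16). Fosl2 had the smallest unadjusted p there, at 0.29 (-0.12 to 0.70, limma adjusted p = 1.00), with vehicle arrays at 4.46 to 5.12 and undecanal arrays at 5.07 to 5.24. Jund was at -0.23 (-0.64 to 0.18), Fosb at 0.09 (-0.82 to 0.99), Junb at 0.07 (-0.65 to 0.78), Atf3 at -0.06 (-0.48 to 0.36) and Fosl1 at 0.03 (-0.48 to 0.53). A difference that missed the threshold does not show that the agents act alike, and for Fosb in arrays titled GFP+ the interval reached 2.10-fold.

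**Figure D3:**
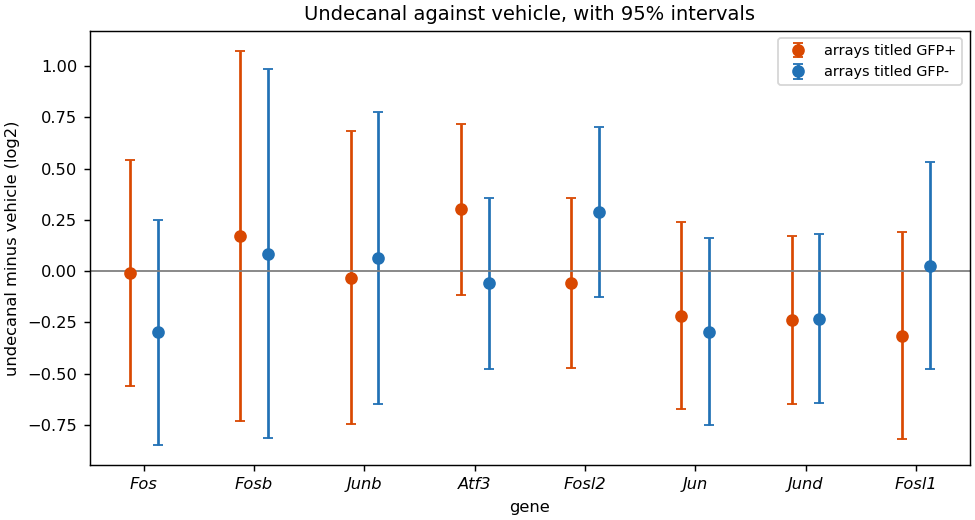
Undecanal minus vehicle (log2, y axis) for each member (x axis) in the 2 fractions; points are differences of group means and bars their 95% intervals from limma. All 16 intervals cross 0.

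The interaction asks whether the fraction difference depended on the agent. 0 of 8 members passed in limma, 0 had an unadjusted p under 0.05, and the background was 0% and 2.63%. The estimates ran from -0.35 for Fosl2 (95% interval -0.93 to 0.24) to 0.36 for Atf3 (95% interval -0.23 to 0.95), with Fos at 0.29 (-0.49 to 1.07) and Fosb at 0.09 (-1.19 to 1.36). The narrower pool-to-pool range of the Fos difference with vehicle than with undecanal was not tested.

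Within arrays titled GFP+ several members deviated alike from pool to pool. Fos, Fosb, Junb and Atf3 were each lowest in pool 3 of the vehicle group, by -0.43, -0.98, -0.72 and -0.27 from the group mean, and each highest in pool 1 of that group. In vehicle pool 4 Fos and Fosb lay above the group mean, by 0.14 each, and in vehicle pool 2 Atf3 lay below it, at -0.10. With undecanal Fos, Junb and Atf3 were lowest in pool 3 as well, and Fosb in pool 4, and all 4 of these genes lay above their group mean in pools 1 and 2 and below it in pools 3 and 4. Of the 8 members 7 lay below the group mean in undecanal pool 3 and 7 in undecanal pool 4. In vehicle pools 3 and 4 it was 6 of 8 each. The share of all probe sets below their group mean on these arrays was not computed, so these counts have no background beside them. Beside this, the summed lymphocyte level in arrays titled GFP+ was 10.87 and 10.93 in vehicle pools 1 and 2 against 9.24 and 8.94 in pools 3 and 4, and 11.46 and 10.57 against 8.77 and 8.50 with undecanal, while the summed neutrophil level stayed between 17.99 and 18.75. Among the lymphocyte markers Cd79a (8.32) and Cd79b (7.57) had the highest means in vehicle arrays titled GFP+, so they weigh most in the lymphocyte sum. Cd3d (4.61) and Cd3g (3.55) lay below background there. The lowest vehicle lymphocyte level was in pool 4, and the lowest vehicle Fos and Fosb levels were in pool 3. With undecanal the summed erythroid level was 12.21, 11.17, 10.36 and 10.75 in pools 1 to 4, the neuronal precursor level 12.49, 12.63, 12.13 and 11.61, and the monocyte and macrophage level 15.06, 14.96, 14.83 and 13.72. In vehicle arrays titled GFP+ the erythroid level was 11.68, 10.87, 11.95 and 10.99. There the neuronal precursor level was 12.58, 11.81, 12.18 and 12.58, and the monocyte and macrophage level 14.43, 14.87, 14.63 and 14.59. The labels do not say that a pool number is shared between agents, and the part of these cell types in the deviations was not tested. In arrays titled GFP- Fosb ranged most, from 6.08 in vehicle pool 3 to 8.26 in vehicle pool 2.

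**Figure D4:**
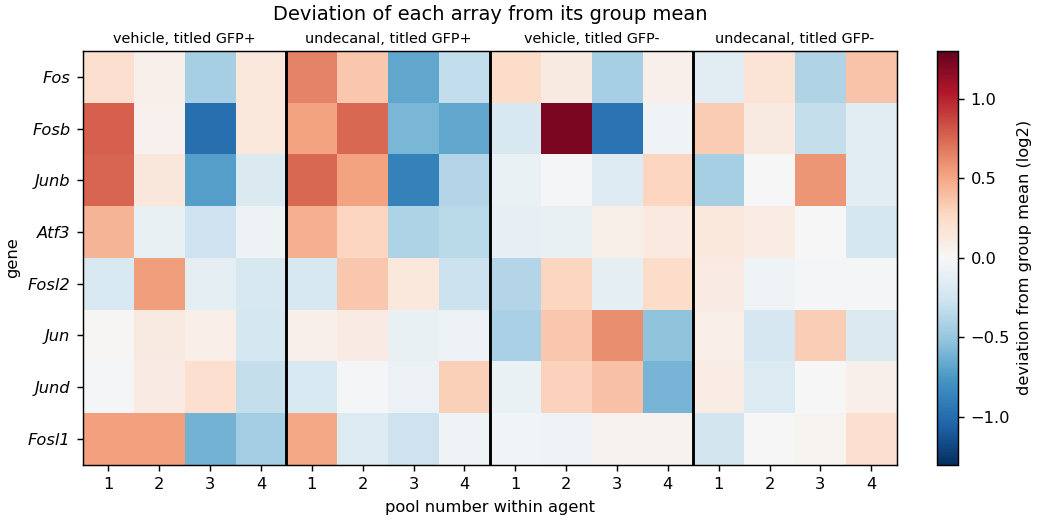
Deviation of each array from its group mean (log2, colour) for each member (rows) and pool (columns), in the 4 groups. Red is above and blue below the group mean; in arrays titled GFP+ Fos, Fosb, Junb and Atf3 are blue in pool 3 of both agents.

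Genes with the most similar profile were sought over the 16 arrays among 12959 genes with a group mean above background, by the root mean square difference after centring each gene on its own mean. For Fos these were 1810046K07Rik (0.322), Fcgr2b (0.407), an inhibitory receptor for immunoglobulin G, and Zfp36l2 (0.417), which encodes an RNA-binding protein of the Zfp36 family. For Fosb they were Fcgr2b (0.541), Rgs2 (0.543) and the chemokine receptor Ccr2 (0.557), and for Junb Chst15 (0.344), Ccrl2 (0.352) and the prostaglandin synthase Ptgs2 (0.375). For Atf3 they were Itprid1 (0.226), Btg1 (0.254) and Septin1 (0.257), and for Fosl2 Trem3 (0.211), Ifitm1 (0.253) and Capg (0.266). The closest to Fosl1 was Ciita (0.209), the regulator of MHC class II genes, to Jun Cebpa (0.224) and to Jund Bcl2l1 (0.137). The arrays share pools and fractions, so these values describe profiles and carry no test.

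Other genes of the pathway are given by list. Their counts stand beside 8.82% of all probe sets that passed as higher and 5.12% as lower with vehicle. With undecanal these shares were 8.83% and 4.36%. Of 29 other immediate early genes measured, 21 passed as higher in vehicle arrays titled GFP+ and 0 as lower, with a median of 1.50, and 20 and 1 passed in undecanal pools. The largest were Egr2 (6.62 with vehicle), Zfp36 (6.36), which encodes a protein that destabilises short-lived mRNAs, Egr1 (6.02) and Btg2 (5.93), an antiproliferative gene. Homer1, a synaptic scaffold gene, was at -0.20 with vehicle and did not pass, with means of 8.87 and 8.67. Arc, Npas4, Bdnf and Egr4 had means below background in all 4 groups, so these arrays do not show whether they differed. The call of Arc as higher with vehicle (0.58, limma adjusted p = 0.01) lies between such means. So does the call of Npas4 as lower with undecanal (-0.61, limma adjusted p = 0.0395). With each array centred on its median the counts were 18 higher and 2 lower with vehicle, and 20 and 3 with undecanal.

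Of 18 textbook AP-1 targets, 8 passed as higher and 1 as lower in vehicle pools, with a median of 0.69, and 8 and 0 in undecanal pools. The matrix metalloproteinase Mmp9 was 7.65 higher, the cytokine Il1b 6.64, the adhesion receptor Cd44 6.06 and the urokinase receptor Plaur 5.56, and each of these genes is also expressed by myeloid cells. The means of Mmp9, Il1b, Cd44 and Plaur lay below background in vehicle arrays titled GFP-, which limits the size that could be measured. The metallothioneins Mt1 (0.05) and Mt2 (0.19) and the heme oxygenase Hmox1 (-0.21) did not pass, and Timp1 lay below background in all 4 groups. Mmp3 was the lower one, at -0.62 with both means below background. With median centring 7 were higher and 4 lower with vehicle, and 7 and 6 with undecanal.

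Feedback regulators of MAP kinases passed as higher in 6 of 14 cases in vehicle pools and in 4 of 14 in undecanal pools, with 0 lower. Of these calls, Dusp2 (1.13 with vehicle and 1.04 with undecanal) had means below background in all 4 groups. Dusp6, a phosphatase that acts on ERK, was 1.78 higher with vehicle, Dusp10 1.46, Spry1 1.34 and Dusp4 1.29, the last from a mean of 3.91 below background. Dusp1, a phosphatase that is itself an immediate early gene, was 0.49 higher with vehicle (limma adjusted p = 0.0255) and 0.48 with undecanal (limma adjusted p = 0.0297). With median centring 4 were higher and 3 lower with vehicle, and 2 and 5 with undecanal.

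Of 12 MAP kinase cascade genes 2 passed as higher with vehicle, Map3k1 (2.90) and the p38 kinase Mapk14 (0.86), and 1 with undecanal, Map3k1 (2.52). Map3k1 lay below background in arrays titled GFP- of both agents, at 3.01 and 3.62, which limits the size that could be measured. The JNK kinases Mapk8, Mapk9 and Mapk10, which phosphorylate Jun, were at -0.23, -0.24 and -0.33 with vehicle and did not pass. Of 13 factors that act at Fos and Jun promoters 1 passed with each agent, Mef2c (2.65 with vehicle), and Srf (0.30), Elk1 (0.05), Creb1 (-0.02) and Crtc2 (-0.23) did not. Of 22 other basic leucine zipper genes 0 passed with vehicle in limma, where 25.8% of all probe sets had an unadjusted p under 0.05 and 1 of the 22 did, and 1 with undecanal, Nfe2 (1.71), a factor of blood cells, from a mean of 3.22 below background. With median centring 8 of the 22 passed as lower with vehicle and 9 with undecanal, and of the MAP kinases 6 passed as lower with each agent, so low counts of lower genes in these lists hold for the deposited scaling only. Of 7 heat shock genes 0 passed with either agent in limma, with medians of 0.29 and 0.38, and 2 and 1 had an unadjusted p under 0.05.

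**Figure D5:**
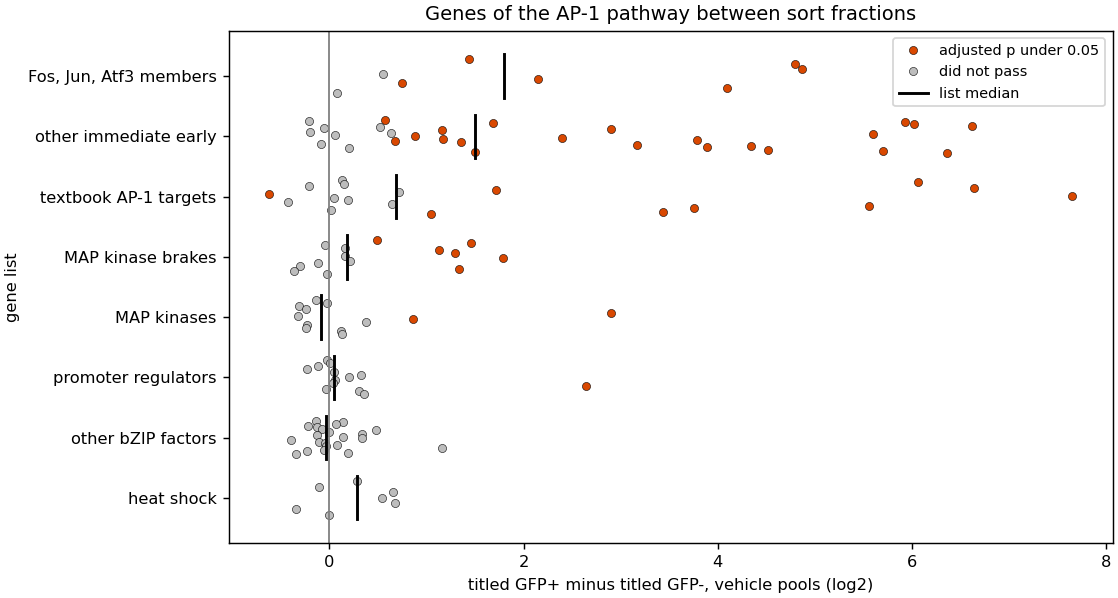
Difference between fractions of vehicle pools, titled GFP+ minus titled GFP- (log2, x axis), for single genes (points) of the members and 7 other gene lists (y axis); orange points passed at an adjusted p under 0.05, grey did not, and bars are list medians. The medians run from 1.80 for the members and 1.50 for other immediate early genes to -0.08 for MAP kinases.

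With undecanal against vehicle 0 genes of these 7 lists passed in limma in either fraction. Among other immediate early genes Egr3 (-0.48) had the smallest p in arrays titled GFP+ and Nr4a3 (0.79, between means of 3.16 and 3.95 that both lay below background) in arrays titled GFP-, and 0 of the 29 had an unadjusted p under 0.05 in either fraction. Cd44 was 2.45 higher with undecanal in arrays titled GFP- (limma adjusted p = 0.179), from a vehicle mean of 3.77 below background to 6.22.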

How the data were processed

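RNA of cells sorted from mouse olfactory mucosa was measured on 16 Clariom S arrays, per the labels. The deposited values are on a log2 scale, 1 value per probe set. Affymetrix Expression Console is the tool that the submitters' processing notes name, and how the authors summarised and normalized the probes, and which annotation build they used, is not given in the sources used here. After 6640 control rows were set aside from 28846, all 22206 other probe sets were tested; the platform annotation names 1 gene for 19572 of them. limma 3.58.1 (R 4.3.3) was run over the 16 arrays with a mean for each of the 4 groups and no term for the pool. Benjamini-Hochberg adjustment used every tested probe set, and calls were made at 0.05. The test was checked on simulated data. Since 24 mice in pools of 3 make 8 pools, same-numbered arrays of 1 agent count as fractions of 1 pool. Their deviations from group means correlated with r from 0.0502 to 0.271, and among the 4 arrays titled GFP- of that agent, the own pool gave the highest r for 8 of 8 arrays titled GFP+. Members and lists were chosen with earlier results of these data known. Named genes are the 8 members, S100a5, Omp, the 3 most similar profiles per member and, from each list and comparison, up to 4 passing genes by size or, where none passes, the 2 with the smallest p; other list genes were named after their values were seen. Promoter sequences are RefSeq's, GRCm38.p6. Alternatives changed the scaling, left out dim probe sets or single pools, weighted arrays, and changed the prior, the block or the groups fitted.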

Additional observations from a re-analysis of the deposited data

Results flagged for a closer look

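Fosl2 in vehicle arrays titled GFP+ was at 7.53 in pool 2, apart from 6.78 to 6.87 in the other 3 pools, and the gap to the next array was 0.878 of the group's range, above Dixon's critical value of 0.829 for 4 arrays. It was the 1 such case among 32 groups of 4 arrays tested, where chance gives about 1 in 20. Without vehicle pool 2 the Fosl2 difference between fractions of vehicle pools was 2.07, and it kept its call.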

How the results depend on the processing

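The count of members called, 6 in each fraction comparison and 0 in the other 3 comparisons, stayed within 1.5 times under every alternative run. The calls of Fos, Fosb, Junb, Fosl2 and Atf3 between fractions held under 17 of 17 alternatives with each agent; Fos ranged from 4.44 to 5.05 with vehicle. Scaling mattered for small differences: median centring moved the median difference of all probe sets between fractions of vehicle pools from -0.113 to -0.469, turned Jund to -0.28 (vehicle) and -0.29 (undecanal) and Fosl1 to -0.15 (undecanal), and quantile normalization turned Fosl1 to -0.14 (undecanal). Array weights turned the interaction of Fosb to -0.12 and of Jun to -0.0266. None of the values that changed sign had passed the test. With 1 pool left out, signs changed among uncalled values. Undecanal minus vehicle in arrays titled GFP+ ranged from -0.22 to 0.22 for Fos, -0.15 to 0.43 for Fosb, -0.17 to 0.12 for Fosl2 and -0.28 to 0.26 for Junb. In arrays titled GFP- it ranged from -0.23 to 0.49 for Fosb, -0.0474 to 0.11 for Fosl1, -0.13 to 0.21 for Junb and -0.11 to 0.0172 for Atf3. Between fractions Jund ranged from -0.0199 to 0.14 (vehicle) and -0.0093 to 0.17 (undecanal), and Fosl1 from -0.0396 to 0.31 (undecanal). The interaction ranged from -0.30 to 0.41 for Fosb, -0.0903 to 0.23 for Jun, -0.49 to 0.39 for Junb and -0.0852 to 0.0936 for Jund. The cause of these sign changes was not tested. With the pool as a replicate block (correlation 0.167) the calls of the members were unchanged, with Jun at 0.75 (limma adjusted p = 0.0118) in vehicle pools. Over all probe sets that block raised the calls between fractions from 3097 to 3747 with vehicle and from 2929 to 3542 with undecanal. The background shares given above are those of the fit without it. The number as a block across agents, added after the data were seen, changed no call of a member either. Each member has 1 row, so taking the lowest row of a gene could not be run. Signal over background limits Fosl2 in arrays titled GFP-.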
